A study of Mus musculus and Sus scrofa with 18 samples.

Results

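The 9 genes described here mark B cells and plasma cells: Cd79a, Cd79b, Ms4a1, Pou2af1, Mzb1, Tnfrsf17, Sdc1, Prdm1 and Xbp1. They were taken by name, not by a threshold on their values, and each was matched to an Ensembl gene of the mouse count table, which holds 55357 genes. The question was whether transcripts of B cells or plasma cells went with the antibody transcripts found in the striatum of these mice. Of the markers, 7, all but Ms4a1 and Tnfrsf17, passed the filter on low counts and were tested among 19463 genes.

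The libraries came from bulk striatum of 3 groups with 3 mice each. WT mice had received an AAV9 vector with a control gRNA and no CasRx. Untreated HD 140Q-KI mice, heterozygous for a knock-in of an expanded CAG repeat within human HTT exon 1, had received AAV9-CasRx with the same kind of control gRNA. Treated HD 140Q-KI mice had received AAV9-CasRx with both vectors of HTT gRNAs. All vectors were injected into the striatum on both sides, CasRx was driven by the ubiquitous CAG promoter, and the gRNA vectors also expressed GFP. The labels give no age. Every HD mouse thus carried CasRx and no WT mouse did, so effects of the mutant allele and of CasRx delivery cannot be told apart in any comparison with WT. Treated and Untreated mice differed in the gRNAs, and also in the number of gRNA vectors.

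As background, Cd79a and Cd79b form the signalling pair of the B cell receptor, and Ms4a1 encodes CD20, a surface protein of B cells that is lost when they become plasma cells. On that switch Prdm1 (BLIMP1) represses the B cell programme, Xbp1 expands the secretory machinery under control of the unfolded protein response, and Mzb1 assists antibody assembly in the endoplasmic reticulum. Plasma cells carry Sdc1 (CD138) and the survival receptor Tnfrsf17 (BCMA) on their surface. Pou2af1 (OCA-B) is a coactivator of octamer-binding factors in B cells and plasma cells. Healthy brain tissue holds few B-lineage cells, while Xbp1, Prdm1 and Sdc1 are also made by other cell types.

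The start regions of 3 markers are shown because these genes stand for the patterns below. Cd79a and Pou2af1 had higher means in both HD groups than in WT mice, and Tnfrsf17 had lower means. RefSeq (GRCm38.p6) gave such a region for 6 of the 9 markers, from 250 bases before to 50 bases after the start site. No entry was present for Cd79b, Ms4a1 and Mzb1. The regions lie at chr7:24897247-24897546 for Cd79a, chr9:51213440-51213739 for Pou2af1 and chr16:11313559-11313858 for Tnfrsf17, all on the plus strand. Capitals mark matches, on either strand, to TGACGTG, the core of an element bound by XBP1, and to GAAAGT, a part of the element bound by PRDM1.
Cd79a: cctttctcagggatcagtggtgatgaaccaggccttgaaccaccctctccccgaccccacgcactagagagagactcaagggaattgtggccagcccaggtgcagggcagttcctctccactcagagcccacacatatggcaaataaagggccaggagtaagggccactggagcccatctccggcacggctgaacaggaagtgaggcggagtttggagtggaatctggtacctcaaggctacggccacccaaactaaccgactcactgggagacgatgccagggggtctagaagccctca
Pou2af1: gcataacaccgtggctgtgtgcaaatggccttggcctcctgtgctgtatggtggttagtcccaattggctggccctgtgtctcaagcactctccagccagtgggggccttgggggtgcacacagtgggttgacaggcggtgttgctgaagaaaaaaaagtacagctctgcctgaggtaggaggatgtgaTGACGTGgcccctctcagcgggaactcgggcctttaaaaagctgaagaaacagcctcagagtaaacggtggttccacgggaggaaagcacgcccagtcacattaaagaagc
Tnfrsf17: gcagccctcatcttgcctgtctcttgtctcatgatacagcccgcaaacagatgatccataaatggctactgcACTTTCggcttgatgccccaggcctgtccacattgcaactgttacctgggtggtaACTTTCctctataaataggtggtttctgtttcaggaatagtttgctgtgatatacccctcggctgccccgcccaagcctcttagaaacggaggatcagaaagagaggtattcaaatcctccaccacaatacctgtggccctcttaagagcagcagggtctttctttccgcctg

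In the 6 regions, TGACGTG occurred only for Pou2af1, beginning 61 bases before the start site, and in 2.01% of all 32851 RefSeq start regions of this length. GAAAGT occurred only for Tnfrsf17, with matches beginning 178 and 123 bases before the start site, and in 14.3% of all regions. The EBF1 element CCCNNGGG was found only for Sdc1 (13.7% of all regions), and the octamer ATGCAAAT for none of the 6 (1.74% of all regions). The matches in the printed regions did not overlap each other. These matches describe the letters of the windows only.

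Library totals lay between 27184356 and 32102121 counts, so 3 counts, the limit that a count of 0 allows, corresponded to 0.0919 to 0.113 CPM (library-scaled counts, with sizes corrected by TMM). Replicates of each group differed by more than sampling noise. Counts of 4 Y-linked genes (Uty, Kdm5d, Eif2s3y, Ddx3y) came to 3435 to 5005 in the WT mice and 4683 in Untreated replicate 1, and to 0 in the other 5 HD mice. Sex and genotype were therefore almost fully confounded. Markers of striatal projection neurons, led by Ppp1r1b, were present in every library and summed to 5993 to 7943 CPM in WT, 1920 to 2305 in the Untreated group and 3097 to 3144 in the Treated group. Choroid plexus markers, led by Ttr, varied from 285 to 5403 CPM with Untreated mice at 285 to 494, and haemoglobin and other red blood cell markers summed to 107 to 190.0 CPM in WT against 2.77 to 67.3 in HD mice.

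In Untreated mice 4 of the 7 tested markers were higher than in WT mice (Cd79a, Mzb1, Prdm1 and Pou2af1), and in Treated mice also 4 (Cd79a, Cd79b, Mzb1 and Pou2af1). None was a DEG with lower expression. A differentially expressed gene (DEG) was one with a change of at least 2-fold and an unadjusted P under 0.05 by the quasi-likelihood test of edgeR. Over all tested genes, 5.57% were DEGs with higher expression in Untreated and 3.84% in Treated mice, and 2.58% and 1.38% were DEGs with lower expression. After Benjamini-Hochberg adjustment over all tested genes, Mzb1 and Pou2af1 passed 0.05 in Untreated mice (2.27% of all genes did so as higher) and Cd79a, Mzb1 and Pou2af1 in Treated mice (0.545%). With all genes kept in the fit, Cd79a (adjusted p = 0.0780) and Pou2af1 (0.0507) no longer passed in Treated mice, while Mzb1 did (0.0394, edgeR). In Untreated mice Mzb1 (0.0472) and Pou2af1 (0.0253) still passed. The remaining calls hold at the unadjusted threshold only. Both comparisons used the same 3 WT libraries. By their WT counts alone, Cd79a, Cd79b, Mzb1 and Pou2af1 would not have passed the filter on low counts. They were tested because of the HD mice, so the number of DEGs among the markers is a description. It is not weighed against the shares over all genes.

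**Figure D1:**
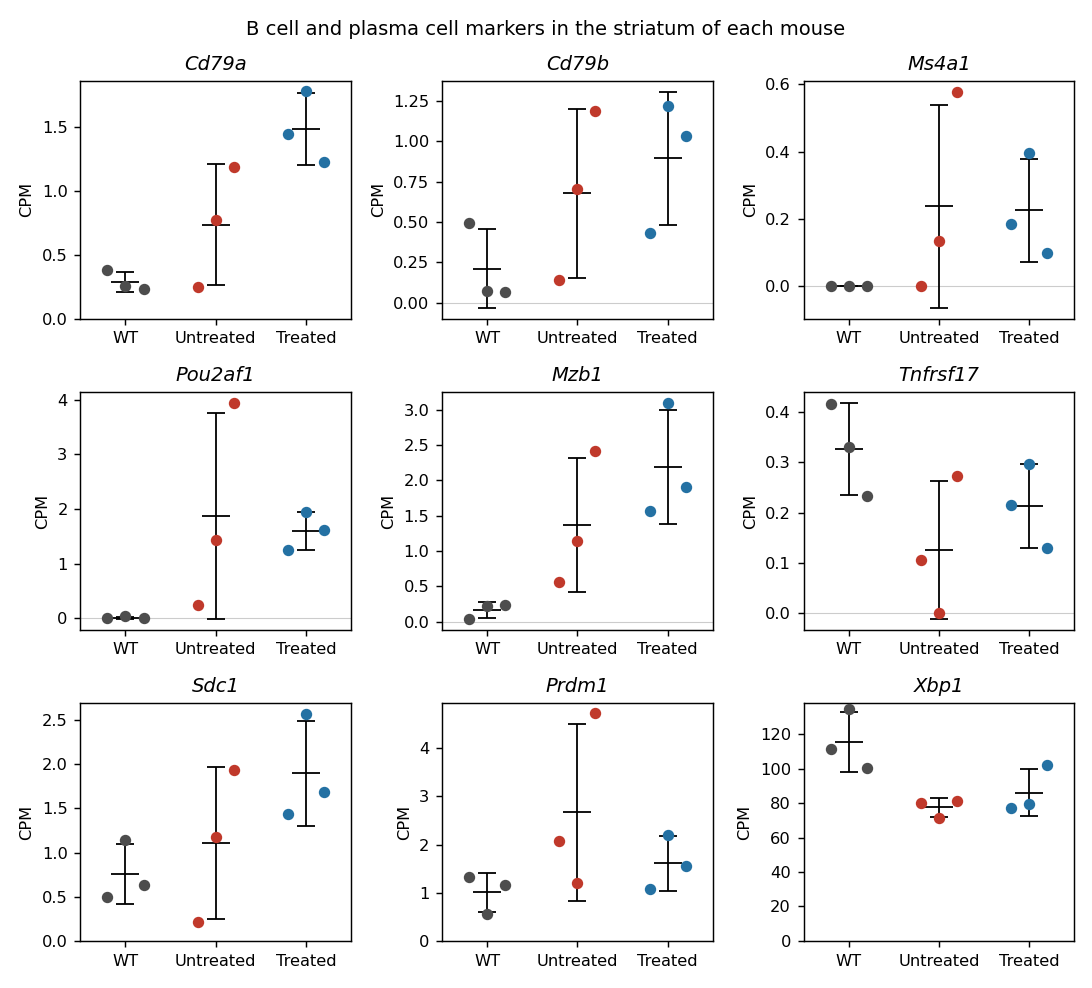
Expression of the 9 markers in CPM (vertical axes, each on its own scale) in WT, Untreated HD and Treated HD mice. Points are single mice in the order of replicates 1 to 3, and bars give the mean and SD of 3 mice. Mzb1 and Pou2af1 separated every HD mouse from every WT mouse, while Tnfrsf17 and Xbp1 had lower means in both HD groups.

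The receptor genes of B cells were low in every mouse. Cd79a (ENSMUSG00000003379, chromosome 7) had 10, 7 and 7 counts in WT replicates 1 to 3. It had 7, 23 and 35 counts in the Untreated and 47, 54 and 38 counts in the Treated group. All Treated mice were above all others, whereas Untreated replicate 1 lay within the WT range. Means were 0.289 ± 0.0777 CPM in WT, 0.736 ± 0.473 in the Untreated group and 1.48 ± 0.278 in the Treated group (SD, n = 3 each). The fitted log2 fold change against WT was 1.34 ± 0.53 (SE, adjusted p = 0.128, edgeR) in Untreated and 2.35 ± 0.52 (adjusted p = 0.0406) in Treated mice. By its WT counts alone Cd79a would not have passed the filter. With all genes kept in the fit the adjusted p in Treated mice was 0.0780 (edgeR). The call in Untreated mice was lost without WT replicate 2 (1.27), WT replicate 3 (1.21), Untreated replicate 2 (1.30) or Untreated replicate 3 (0.82), and that in Treated mice held without any single mouse. Non-overlapping groups with the HD mice higher were found for 15.0% of all genes in the Untreated and 13.4% in the Treated comparison.

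Cd79b (chromosome 11), the partner of Cd79a, had 13, 2 and 2 counts in WT, 4, 21 and 35 in the Untreated group and 14, 37 and 32 in the Treated group. WT replicate 1 stood above the other WT mice and reached 0.491 CPM, above the 0.429 CPM of Treated replicate 1, so the groups overlapped. The log2 fold change was 1.70 ± 0.89 (no DEG, adjusted p = 0.240, edgeR) in Untreated and 2.09 ± 0.88 (a DEG, adjusted p = 0.208) in Treated mice. By its WT counts alone Cd79b would not have passed the filter. The call in Treated mice was lost without WT replicate 2 (1.71), WT replicate 3 (1.66), Treated replicate 2 (1.81) or Treated replicate 3 (1.98). Without WT replicate 1 the difference grew to 3.59 in Treated and 3.19 in Untreated mice.

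Ms4a1 (chromosome 19) was counted in no WT mouse. It had 0, 4 and 17 counts in the Untreated group and 6, 12 and 3 in the Treated group, so 5 of the 6 HD mice held at least 3 counts. The group means were 2.203 times (Untreated) and 2.09 times (Treated) the level that 3 counts, the limit for a count of 0, gave in WT libraries. This did not hold mouse by mouse: Untreated replicate 1 and Treated replicate 3 were not above that level. Error in the HD counts is not included. The gene did not pass the filter and was not in the main test. When all genes were kept in the edgeR fit it was a DEG in both comparisons, without passing adjustment (adjusted p = 0.187 and 0.275). Transcripts of this B cell gene were thus detected in HD mice at no more than 17 counts per library.

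Pou2af1 (chromosome 9) had the largest fitted change of the markers. WT mice had 0, 1 and 0 counts, Untreated mice 7, 43 and 116, and Treated mice 41, 59 and 50. Every HD mouse was above every WT mouse, and Untreated replicate 3 was the highest and Untreated replicate 1 the lowest of the HD mice. Because WT mice held 1 count in all, the size of the change is poorly bounded. The ratio of summed counts, corrected for library size, was 159 (95% interval 28.1 to 6302, counting error only) for Untreated and 134 (23.7 to 5320) for Treated against WT. The adjusted p was 0.0126 in Untreated and 0.0252 in Treated mice (edgeR). The gene passed the filter only through the HD mice. Without the filter the adjusted p was 0.0253 and 0.0507, and when only Untreated and WT mice were fitted the gene did not pass the filter.

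Mzb1 (chromosome 18) was counted in all libraries, with 1, 6 and 7 counts in WT, 16, 34 and 71 in the Untreated group and 51, 94 and 59 in the Treated group. The groups did not overlap with WT. Its mean was 0.164 ± 0.109 CPM in WT, 1.37 ± 0.947 in the Untreated group and 2.19 ± 0.805 in the Treated group (SD, n = 3 each). The log2 fold change was 3.02 ± 0.67 (adjusted p = 0.0247, edgeR) in Untreated and 3.69 ± 0.67 (adjusted p = 0.0198) in Treated mice. By its WT counts alone Mzb1 would not have passed the filter. With all genes kept in the fit the adjusted p was 0.0472 in Untreated and 0.0394 in Treated mice (edgeR). Leaving out any single mouse of the compared groups kept the log2 fold change between 2.33 and 3.38 in Untreated and between 3.24 and 4.04 in Treated mice, and Mzb1 remained a DEG each time.

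Of the other plasma cell markers, Prdm1 was a DEG in Untreated mice and none was in Treated mice. Tnfrsf17 (chromosome 16) had 11, 9 and 7 counts in WT, 3, 0 and 8 in the Untreated group and 7, 9 and 4 in the Treated group. Its levels in CPM overlapped between WT and both HD groups, and the mean was highest in WT. The ratio of summed counts was 0.389 (95% interval 0.174 to 0.811, counting error only) for Untreated and 0.661 (0.351 to 1.22) for Treated against WT. When all genes were kept in the edgeR fit, neither difference passed (adjusted p = 0.462 and 0.778), and a rise of this receptor was not detected at 27 WT counts in all.

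Sdc1 (chromosome 12) had 13, 31 and 19 counts in WT, 6, 35 and 57 in the Untreated group and 47, 78 and 52 in the Treated group. Treated mice lay above all WT mice, at 1.90 ± 0.595 against 0.753 ± 0.340 CPM (SD, n = 3 each), and Untreated mice spread from below to above the WT range. The log2 fold change of 1.33 ± 0.63 in Treated mice missed the threshold (adjusted p = 0.261, edgeR), and that of 0.56 ± 0.64 in Untreated mice did as well (adjusted p = 0.611). It was a DEG in Treated against WT mice without WT replicate 2 (1.75), when only these groups were fitted (1.33) and by DESeq2 (1.35, adjusted p = 0.184).

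Prdm1 (chromosome 10) had 35, 15 and 35 counts in WT, 59, 36 and 139 in the Untreated group and 35, 67 and 48 in the Treated group. Untreated replicate 3 stood above all other mice with 4.72 CPM, and Treated replicate 2 followed with 2.21 CPM. The log2 fold change in Untreated mice was 1.39 ± 0.53 (a DEG, adjusted p = 0.117, edgeR) with overlapping groups. It was 0.69 and no longer called without Untreated replicate 3, and the call was also lost without WT replicate 2, at 1.10. In Treated mice the value was 0.67 ± 0.53 (adjusted p = 0.510, edgeR).

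Xbp1 (chromosome 11) was lower in Untreated mice. WT mice had 2951, 3671 and 3015 counts, Untreated mice 2289, 2116 and 2385, and Treated mice 2519, 2406 and 3156. All Untreated mice were below all WT mice, as were 15.1% of all genes, and Treated replicate 3 lay within the WT range. Means were 115 ± 17.6 CPM in WT, 77.5 ± 5.55 in the Untreated group and 86.1 ± 13.7 in the Treated group (SD, n = 3 each). The log2 fold change was -0.58 ± 0.13 (adjusted p = 0.0286, edgeR) in Untreated and -0.42 ± 0.13 (adjusted p = 0.11) in Treated mice, both smaller than 2-fold. With all genes kept in the fit the adjusted p in Untreated mice was 0.0527 (edgeR). These are counts of the whole gene and do not separate the spliced from the unspliced Xbp1 transcript. In bulk tissue, a change in the number of cells of a type and a change in the RNA per cell cannot be told apart.

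**Figure D2:**
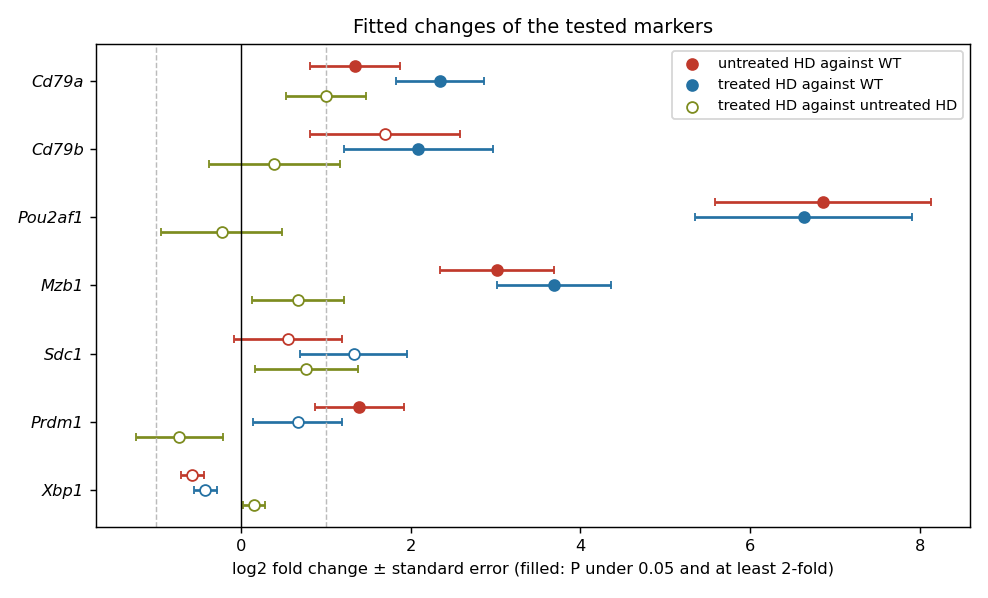
Log2 fold change and its standard error (horizontal axis) of the 7 tested markers (vertical axis) in the 3 comparisons, from edgeR's quasi-likelihood fit over 9 libraries. Filled points are DEGs and dashed lines mark 2-fold. Pou2af1 and Mzb1 lay far to the right in both comparisons with WT, Xbp1 lay to the left of 0 in these comparisons, and no point of the Treated against Untreated comparison was filled.

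Between Treated and Untreated mice, none of the 7 markers was a DEG. Over all genes 0.360% were DEGs with higher and 0.411% with lower expression in Treated mice, and no gene passed the adjusted threshold in edgeR (smallest adjusted p = 0.348, with 1071 genes at unadjusted P under 0.05). Cd79a came nearest, with a log2 fold change of 1.00 ± 0.47 (adjusted p = 0.889, edgeR) and all Treated above all Untreated mice, as for 6.92% of all genes. Mzb1 differed by 0.67 ± 0.54, Sdc1 by 0.77 ± 0.61, Cd79b by 0.39 ± 0.77, Xbp1 by 0.15 ± 0.13, Pou2af1 by -0.23 ± 0.71 and Prdm1 by -0.73 ± 0.51.

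The spread among Untreated mice weighed on this comparison. Untreated replicate 3 had the highest CPM of its group for all 9 markers, so leaving it out lowers the Untreated means by construction. Without this mouse, 3 markers were DEGs with higher expression in Treated mice: Cd79a (log2 fold change 1.53), Mzb1 (1.35) and Sdc1 (1.44). Without Untreated replicate 1, which left the 5 HD mice without Y-linked counts, the differences were smaller, at 0.60 for Cd79a, 0.31 for Mzb1 and 0.29 for Sdc1, and none was a DEG.

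Sex and genotype cannot be told apart for these markers. Untreated replicate 1, the only HD mouse with Y-linked counts, had 7 counts of Cd79a, 4 of Cd79b and 6 of Sdc1, which were not above the highest WT mouse. Its 16 counts of Mzb1 and 7 of Pou2af1 were above all WT mice. Leaving it out raised the number of DEGs among the markers in Untreated against WT from 4 to 7, since Cd79b, Sdc1 and Ms4a1 joined, the last because it then passed the filter. No HD mouse of that comparison then had Y-linked counts. With the share of Y-linked counts as a covariate, where the contrast with WT rests largely on this mouse, Cd79a was no longer called in Untreated (log2 fold change 0.05) or Treated mice (0.66), Cd79b turned to -0.14 and -0.20, and Prdm1 was no longer called in Untreated mice (1.17). Mzb1 and Pou2af1 stayed DEGs in both comparisons.

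Antibody transcripts are made by the same cells, and 13 genes of antibody constant regions and the J chain were summed as the antibody level. It was 43.0, 25.8 and 13.7 CPM in WT, 137, 437 and 1040.3 CPM in the Untreated group, and 693, 1338 and 855 CPM in the Treated group. All HD mice lay above all WT mice. Iglc1, Iglc2 and Iglc3 of the lambda light chains were at 0 counts in all WT mice and passed the filter only through the HD mice, so the number of DEGs on this list is largely set by the filter and is not given as a result. Ighd and Ighe did not pass it. Igkc, the kappa light chain, had 0, 10 and 8 counts in WT, 776, 4076 and 10709 in the Untreated group and 8462, 14925 and 9527 in the Treated group. Most antibody counts of WT mice were of Ighm, with 1033, 616 and 375 counts, and without Ighm the WT level was 4.004, 3.16 and 1.26 CPM. Ighg2b, of an IgG heavy chain, was likewise at 0 counts in WT mice and had 417 to 3892 counts in HD mice. The J chain gene Jchain was higher by 6.74 and 7.51 (log2, adjusted p = 0.00438 and 0.00525, edgeR) in Untreated and Treated mice, and Ighg2c by 4.48 and 6.63 (adjusted p = 0.00785 and 0.00359). Antibody genes resemble each other closely, so the split of reads among them is uncertain. Treated mice exceeded Untreated mice in 2 genes of the list, Ighg2b (log2 fold change 1.21, adjusted p = 0.889) and Ighg2c (2.15, adjusted p = 0.821, edgeR).

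Across the 6 HD mice, Mzb1 and Sdc1 followed the antibody level in rank order without exception. Pearson's r between log2 CPM of the gene and the log2 antibody level was 0.989 for Mzb1 and 0.985 for Sdc1 (exact permutation p = 0.00139 for each, n = 6), with Spearman's rho of 1 for both (exact p = 0.00278). The values were 0.968 for Cd79a (p = 0.0111, rho 0.771, p = 0.103), 0.921 for Cd79b (p = 0.0222, rho 0.943, p = 0.0167) and 0.903 for Pou2af1 (p = 0.0250, rho 0.886, p = 0.0333), all by exact two-sided permutation. For Ms4a1 r was 0.876 (exact p = 0.0208, rho 0.771, p = 0.103). A positive r with exact p under 0.05 was found for 4.81% of all tested genes, and no gene passed adjustment over all of them (smallest adjusted p = 0.332). With 6 mice an exact p cannot go below 0.00139. Passing adjustment would have needed many genes at that limit, so this outcome says little.

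The relation of Mzb1 and Sdc1 to the antibody level did not rest on the mice of lowest antibody level or on any single mouse. Leaving out each HD mouse in turn kept r between 0.988 and 0.992 for Mzb1 and between 0.977 and 0.999 for Sdc1. Without Untreated replicates 1 and 2, which lay farthest from the median antibody level, r was 0.999 for Mzb1 and 0.993 for Sdc1, against 0.837 for Cd79b, 0.468 for Cd79a and 0.532 for Pou2af1. The relation of Cd79a and Pou2af1 to the antibody level thus rested on those mice. Without Untreated replicate 1 alone, r was 0.838 for Cd79a (exact p = 0.1), 0.670 for Cd79b (exact p = 0.233) and 0.549 for Pou2af1 (exact p = 0.350). Within the Untreated and the Treated group there were 3 mice each, too few for a correlation of their own.

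The remaining plasma cell markers had weaker relations to the antibody level. Across the HD mice r was 0.225 for Xbp1 (exact p = 0.614, rho 0.314, p = 0.564), 0.222 for Prdm1 (exact p = 0.635, rho 0.543, p = 0.297) and 0.535 for Tnfrsf17 (exact p = 0.268, rho 0.886, p = 0.0333). With 0 to 9 counts per HD library, the rank of Tnfrsf17 turns on single counts.

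**Figure D3:**
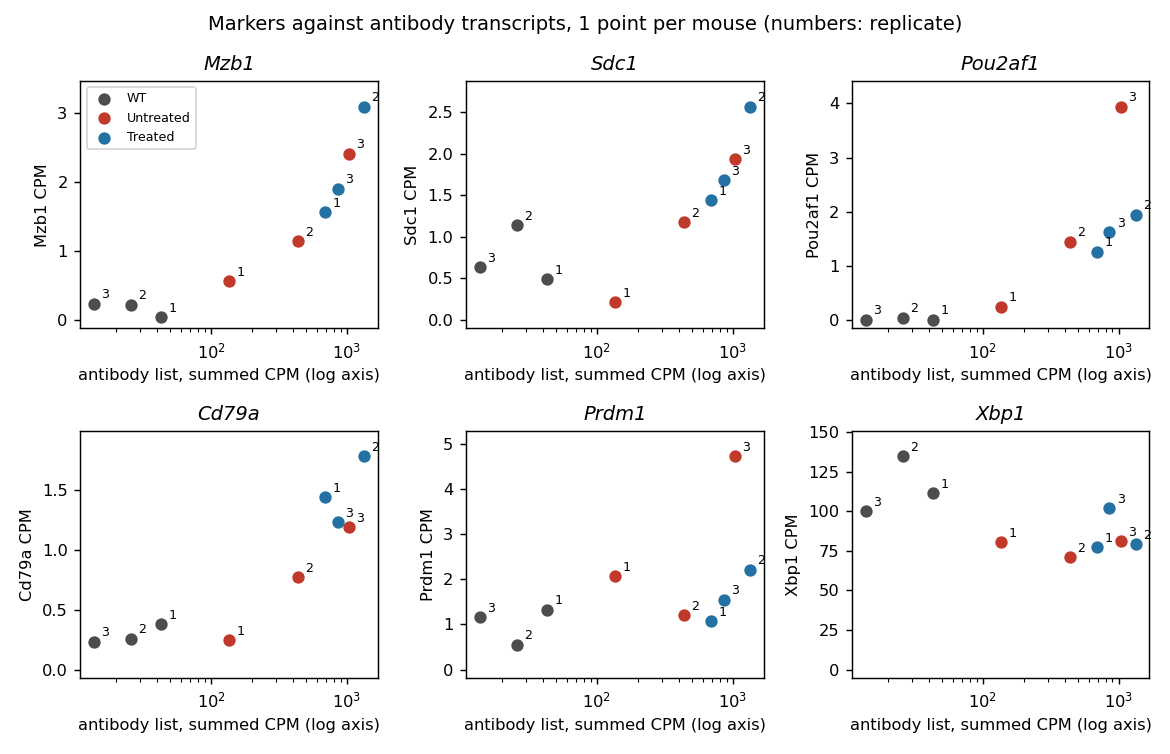
CPM of 6 markers (vertical axes) against the summed CPM of 13 antibody genes (horizontal log axis), with 1 point per mouse and its replicate number beside it. The 6 HD mice rise in 1 line for Mzb1 and Sdc1, from Untreated replicate 1 at 137 antibody CPM to Treated replicate 2 at 1338, whereas Prdm1 and Xbp1 show no such line.

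Counts of antibody genes per count of Mzb1 were alike in the HD mice with more counts. The ratio was 443, 432 and 448 in Treated replicates 1 to 3 and 431 in Untreated replicate 3, with 95% intervals from counting alone of 337 to 595, 353 to 535, 347 to 589 and 342 to 552. In Untreated replicate 2 it was 383 (274 to 553) and in Untreated replicate 1 it was 243 (149.6 to 426), where it rests on 16 Mzb1 counts. All 6 intervals overlapped, which does not show that the ratios were equal. Jchain counts per Mzb1 count were 13.2 in Untreated replicate 1 and 32.9 to 39.1 in the other HD mice. In WT replicates 1 to 3 antibody counts per Mzb1 count were 1139, 117 and 59, at 1, 6 and 7 Mzb1 counts. Per count of Sdc1 the antibody counts ranged from 372 to 649 in HD mice and from 21.7 to 87.6 in WT mice. Per count of Pou2af1 they ranged from 264 to 688 in HD mice. The Pou2af1 ratio was lowest in Untreated replicate 3, the mouse with 116 Pou2af1 counts. Such ratios compare mice and are not relative levels of the genes, since capture can differ between genes.

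T cells also make Prdm1 and, on activation, Pou2af1, so their markers are set beside these genes. Of 14 T cell genes, 13 were DEGs with higher expression in Untreated and 9 in Treated mice (5.57% and 3.84% of all genes were). Cd4, with the most counts, was lower in both (2.58% and 1.38% of all genes were). Genes such as Cd3d and Cd3g, at 0 counts in all WT mice, passed the filter only through HD mice and had to differ. The number of T cell DEGs is therefore a description. All 14 genes summed to 73.7 to 84.6 CPM in WT, 38.3 to 124.9 in the Untreated group and 49.6 to 62.8 in the Treated group. Cd4 was left out of the T cell level after the data were seen, because it was lower in HD mice. The choice followed the direction of Cd4, so a rise of the T cell level is a description. Without Cd4 the other 13 summed to 11.11, 4.81 and 3.82 CPM in WT, 20.1, 22.6 and 110.4 in the Untreated group and 17.1, 23.1 and 31.3 in the Treated group. Untreated replicate 3 stood apart and was also the highest in Prdm1 and Pou2af1. Cd3d was at 0 counts in all WT mice and in Untreated replicate 1.

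Across the 6 HD mice, r with this T cell level was 0.855 for Prdm1 (exact p = 0.0528, rho 0.714, p = 0.136), 0.664 for Pou2af1 (exact p = 0.207, rho 0.886, p = 0.0333), 0.434 for Mzb1 (exact p = 0.365), 0.346 for Sdc1 (exact p = 0.364) and 0.201 for Cd79a (exact p = 0.628). The T cell and antibody levels had an r of 0.402 (exact p = 0.365). The part of T cells in the values of Prdm1 and Pou2af1 was not tested.

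Further B cell genes were examined as a list of 26, of which 17 were tested. In Untreated mice 7 were DEGs with higher and 0 with lower expression, in Treated mice 4 and 0, and between HD groups none. Over all tested genes 5.57% and 3.84% were DEGs with higher expression in Untreated and Treated mice. The median log2 fold change was 0.94 and 0.70 against WT, where the median of all tested genes was 0.02 and 0.00. The smallest P belonged to Cd22, an inhibitory receptor (4.74 in Untreated, adjusted p = 0.0230, and 4.28 in Treated mice, adjusted p = 0.0546, edgeR), and to Tnfrsf13c, the BAFF receptor (2.83, adjusted p = 0.0339, and 3.15, adjusted p = 0.0393). Cd37, a tetraspanin of leukocytes, followed in Untreated mice (1.43, adjusted p = 0.0546, and 1.07, adjusted p = 0.170 in Treated mice), and Lyn, a kinase that microglia also make, in Treated mice (1.07, adjusted p = 0.107). Cd22 and Tnfrsf13c, at no more than 0.299 and 0.166 CPM in any WT mouse, passed the filter only through HD mice. The number of DEGs and the median of this list are therefore a description. The transcription factor gene Pax5 was too low to test, with no more than 6 counts in any mouse.

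Of 14 further plasma cell genes, all tested, 6 were DEGs with higher expression in each comparison with WT and none between HD groups. Over all tested genes 5.57% in Untreated and 3.84% in Treated mice were such DEGs. The median log2 fold change of the list was 0.87 and 0.70. The smallest P belonged to Slamf7, a surface receptor of plasma cells and cytotoxic lymphocytes (6.38 in Untreated, adjusted p = 0.0390, and 5.92 in Treated mice, adjusted p = 0.0814, edgeR). Cd28, a costimulatory receptor of T cells and long-lived plasma cells (5.18, adjusted p = 0.0440), and Itga4, an integrin subunit of many leukocytes (1.59, adjusted p = 0.0455), came next in Untreated mice. In Treated mice these were Tnfrsf13b, the receptor TACI (1.87, adjusted p = 0.0827), and Irf4, a transcription factor of plasma cells and activated T cells (2.10, adjusted p = 0.115). The changes of Slamf7 and Cd28 rest on no more than 4 counts in any WT mouse. Both genes passed the filter only through HD mice, so the number of DEGs on this list is a description.

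Of target genes of XBP1 and of the unfolded protein response, 25 were tested. None was a DEG in any of the 3 comparisons, where against WT 5.57% and 3.84% of all genes were DEGs with higher and 2.58% and 1.38% with lower expression, so that few would be called at these shares. The median log2 fold change was -0.24 in Untreated and -0.21 in Treated mice. In Untreated mice 7 of the 25 and in Treated mice 6 of the 25 had a value above 0.

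Signals that hold B cells and plasma cells in tissue were a list of 18 genes, of which 12 were tested. In Untreated mice 8 were DEGs with higher expression, in Treated mice 7, none was lower, and none was a DEG between HD groups. The shares of such higher DEGs over all tested genes were 5.57% and 3.84%. Several listed genes passed the filter only through HD mice, so the number of DEGs on this list is a description. The chemokines Cxcl13, which attracts B cells (8.27, adjusted p = 0.0168), Cxcl10 (7.45, adjusted p = 0.0198) and Cxcl9 (8.71, adjusted p = 0.0251, edgeR) had the smallest P in Untreated mice, and the same 3 in Treated mice (7.13, 7.23 and 7.71). Cxcl13 had 0, 2 and 0 counts in WT, 36, 155 and 574 in the Untreated group and 30, 65 and 271 in the Treated group. All 3 chemokines rest on at most 6 WT counts in all, so the size of each change is loosely bounded.

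Genes of germinal centres and cell division gave no DEG among 8 tested in any comparison. Markers of some other blood cells were higher as well. Of 4 tested genes of NK and cytotoxic cells, 3 were DEGs with higher expression in Untreated and 2 in Treated mice. Over all tested genes the shares were 5.57% and 3.84%. Ccl5 had the most counts, and these DEGs too were near 0 counts in WT mice, so their number is a description. The 9 listed NK and cytotoxic genes summed to 0.73 to 0.90 CPM in WT, 2.46 to 48.1 in the Untreated group and 1.93 to 14.4 in the Treated group. Of 7 tested genes of monocytes, neutrophils and dendritic cells, 3 were DEGs with higher expression in each comparison (5.57% and 3.84% of all genes were). The list was led by Lyz2, a gene microglia also make. It summed to 23.9 to 26.7 CPM in WT, 39.8 to 162 in the Untreated group and 56.1 to 85.3 in the Treated group. S100a8 and S100a9 of neutrophils had no more than 8 counts in any mouse. Red blood cell genes were not higher in HD mice, with all 5 lower in Treated mice (1.38% of all genes were) and none a DEG in Untreated mice. Of 10 choroid plexus and ependyma genes, 9 were lower in Untreated mice (2.58% of all genes were) and none was a DEG in Treated mice. This list summed to 319, 5403 and 2031 CPM in WT replicates 1 to 3 and to 285 to 494 in Untreated mice. WT replicate 1 thus lay within the Untreated range, and the calls rest on WT replicates 2 and 3. Of 9 genes of meninges and fibroblasts, 1 was higher (Col3a1) and 1 lower (Igf2) in Untreated mice, with no DEG in Treated mice. The part of these cell types in the values of the markers was not tested.

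**Figure D4:**
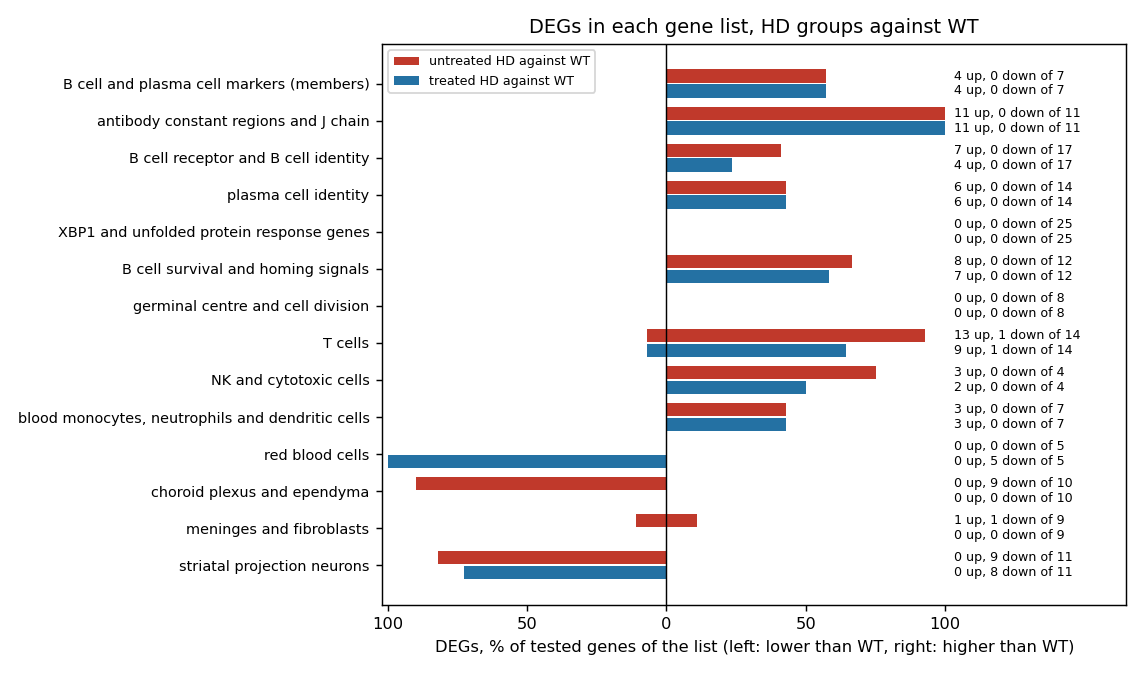
Share of the tested genes of each list (vertical axis) that were DEGs, in percent (horizontal axis, lower than WT to the left and higher to the right), for Untreated and Treated HD mice against WT, with the counts printed at the right. The lists passed the filter on low counts to different degrees (genes near 0 in WT mice only through the HD mice), so the shares are not compared between lists. No DEG was among the 25 tested genes of XBP1 and the unfolded protein response.

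Genes most like the markers were sought by the Pearson r, over all 9 libraries, of log2 CPM with the mean z score of Cd79a, Cd79b, Mzb1 and Pou2af1. Tnfrsf17, named with them for this pattern, did not pass the filter, and all 4 were DEGs in Treated against WT mice. The highest among genes that are neither markers nor antibody genes were Btg2, an antiproliferative gene (r = 0.980), the long non-coding transcript AI662270 (0.976), Ctse, an aspartic protease (0.975), Slpi, a secreted protease inhibitor (0.974), and Asgr2, a lectin receptor subunit (0.970). Btg2 lay between 9.44 and 12.4 CPM in WT, 13.0 and 20.8 in the Untreated group and 21.1 and 24.1 in the Treated group, and Slpi between 0.264 and 0.440, 0.772 and 3.13, and 2.82 and 3.82 CPM. Among antibody genes Igkv12-44 (0.986), Igkv4-53 (0.982) and Igkj1 (0.980) were the most like, and all 3 had 0 counts in every WT mouse. These values describe likeness over libraries that fall into WT and HD mice.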

How the data were processed

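Gene expression was measured in the striatum of 9 mice (3 WT, 3 Untreated and 3 Treated HD 140Q-KI mice, 1 library each) by sequencing of polyA RNA from the 3′ end. The study's methods describe RNA-seq on the Illumina HiSeq X and mention neither polyA selection nor the 3′ end, so the library type is uncertain. The values deposited by the authors were raw counts per Ensembl gene. The study's methods name STAR, whereas the submitters' processing notes name Trimmomatic 0.39, FastQC 0.11.9, HISAT2 2.2.1 and featureCounts 2.0.1. The mouse build and annotation, the use of strand and the treatment of duplicate reads are not given in the sources used here. Reads shared by similar genes could therefore be lost or split, and counts of different genes are not levels per length. The pig table was not used here.

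Symbols were matched by Ensembl ID to GENCODE vM21. Groups were taken from the labels. Counts were filtered by expression per group, scaled by TMM and fitted over all 9 libraries (6 residual degrees of freedom) with edgeR 4.0.16 in R 4.3.3, and P was adjusted by Benjamini-Hochberg over 19463 genes. DESeq2 1.42.0 was an alternative, beside no filter, no TMM scaling, stricter thresholds, fitting only the compared groups, a replicate block, the share of Y-linked counts as a covariate and leaving out each mouse. Correlations used log2 CPM with a prior count of 2 and exact two-sided permutation over 6 HD mice. The edgeR test was checked on simulated data. The correlation alternatives, without Ighm and with T cell genes other than Cd4, were added after the data were seen. P-values measure the spread between mice, and intervals cover counting error only. With 3 mice a group, a single exact permutation test cannot go below p = 0.1, so none was run between groups.

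The markers and gene lists were chosen with earlier results of these data known. All 9 markers are described. Of every other list of B cell or plasma cell biology, the DEGs with the smallest P are named, at most 3 a comparison, and lists of other cell types are given by their counts, their summed CPM and the gene with the most counts. The most similar genes are the 5 of highest r outside antibody genes and the 3 among antibody genes. Genes named outside this rule, such as Pax5, Cd3d, S100a8 and S100a9, were chosen after their values were seen. Values of some listed genes are not reported here.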

Additional observations from a re-analysis of the deposited data

How the results depend on the processing

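Of 4 DEGs among the markers in Untreated against WT mice, 2 were left at P under 0.01, 2 at an adjusted p under 0.05 and 2 when only the compared groups were fitted, where Pou2af1 did not pass the filter. Of 4 in Treated against WT, 2 were left with the share of Y-linked counts as a covariate. Leaving out each mouse in turn gave 2 to 7 DEGs in Untreated against WT (2 without WT replicate 2 or Untreated replicate 3, 7 without Untreated replicate 1), 3 to 5 in Treated against WT and 0 to 3 in Treated against Untreated mice. With Y-linked counts as a covariate, Cd79b turned to -0.14, -0.20 and -0.061 in the 3 comparisons, and Sdc1 to -1.49 in Untreated (called as lower) and -1.22 in Treated against WT. Same-numbered mice of different groups are different animals, and their deviations correlated at -0.08 to 0.24, so the numbers were not taken as pairs. Of 6 mice in each comparison, 2, 2 and 4 correlated best with their own number. With a replicate block, 3, 4 and 0 markers were DEGs. Cd79a (1.26) was then not called in Untreated against WT, while in Treated against WT Cd79b (1.93) was not called and Sdc1 (1.39) was, and Pou2af1 turned to 0.27 in Treated against Untreated mice. Over the mice left out in turn, values that changed sign ranged from -0.077 to 1.06 for Cd79b and -0.73 to 0.92 for Pou2af1 in Treated against Untreated, from -0.11 to 1.03 for Sdc1 in Untreated against WT, and from -0.10 to 0.65 for the r of Prdm1 with the antibody level. The r of Xbp1 was -0.16 without the 2 mice farthest from the median. The cause of these changes was not tested, apart from fewer mice or stricter thresholds by construction. Of 370 alternative single values, 316 kept direction and call, 33 lost and 10 gained the call, and 11 changed sign. At no more than 116 counts per library for any marker but Prdm1 and Xbp1, counting error limits precision.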
